A study of Rattus norvegicus with 9 samples.

Results

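Hif1a, Vegfa, Slc2a1, Hk2, Gapdh, Eno1 and Ldha form a small set of hypoxia and glycolysis genes, chosen by name. No rule on their values was applied, but earlier results of these data were known when the set was chosen. They are 7 of the 32883 genes in the count table, and each symbol was taken from the list that pairs it with its Ensembl identifier. All 7 passed the filter on low counts, as did 12943 genes in all. Total RNA was sequenced from cultured rat renal artery endothelial cells, which line the artery that feeds the kidney, in 9 libraries. The labels give a Normal group, a Model group and a group given calycosin with tanshinone IIA (the treated group), each of 3 libraries. The series title ties the Model condition to angiotensin II, a peptide hormone that constricts vessels and raises blood pressure, and asks whether the 2 compounds, an isoflavone and a diterpene quinone, together improve endothelial dysfunction. Comparing the treated group with Model assumes, from that title, that treated cells also received the Model condition, since their labels name only the compounds. The labels give no dose, no time and no strain or age of rat. The growth protocol shared by all groups is a serum-containing medium in a humid CO2 incubator, and it names no low-oxygen step. Markers of endothelial and other cell types were not analysed here, because the file pairs its identifiers with no symbols and 0 of them matched the reference gene table.

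In oxygenated cells the HIF-1 alpha protein is hydroxylated and degraded, and when oxygen is short it persists, joins its partner ARNT and binds short DNA elements with the core A/GCGTG near its target genes. That control acts mostly on the protein, so Hif1a mRNA is not a measure of HIF activity. Classic targets are VEGF-A, the growth factor that drives vessel growth and permeability, GLUT1 (Slc2a1), which carries glucose into the cell, and most enzymes that break glucose down to lactate. Endothelial cells are known to draw much of their ATP from glycolysis even where oxygen is plentiful.

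The stretches before the RefSeq transcription starts are shown for Vegfa and Hk2, which rose in the treated group, and for Slc2a1 and Ldha, which did not pass the test there, so that a reader can see the letters the members hold. Each is the 250 bases before the start, 5′ to 3′ on the gene's strand, from RefSeq on the GRCr8 build. Windows were found for all 7 members, with 9 windows in all because Vegfa and Eno1 have more than 1 start. The Vegfa window shown is the farther upstream. Capitals mark the letters ACGTG or GCGTG on either strand, the core of the HIF binding element, with overlapping matches run together.
Vegfa, chr9:22452604-22452853, plus strand: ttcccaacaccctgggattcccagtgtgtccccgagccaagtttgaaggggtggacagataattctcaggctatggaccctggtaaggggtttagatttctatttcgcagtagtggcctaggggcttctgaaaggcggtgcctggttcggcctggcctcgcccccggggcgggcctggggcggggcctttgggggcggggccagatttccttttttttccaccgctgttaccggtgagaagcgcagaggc
Hk2, chr4:116841276-116841525, minus strand: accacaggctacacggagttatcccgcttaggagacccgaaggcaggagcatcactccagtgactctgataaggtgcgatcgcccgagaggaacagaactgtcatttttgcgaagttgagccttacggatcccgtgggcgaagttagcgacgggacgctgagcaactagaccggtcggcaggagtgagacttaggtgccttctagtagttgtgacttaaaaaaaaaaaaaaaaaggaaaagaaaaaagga
Slc2a1, chr5:138002272-138002521, plus strand: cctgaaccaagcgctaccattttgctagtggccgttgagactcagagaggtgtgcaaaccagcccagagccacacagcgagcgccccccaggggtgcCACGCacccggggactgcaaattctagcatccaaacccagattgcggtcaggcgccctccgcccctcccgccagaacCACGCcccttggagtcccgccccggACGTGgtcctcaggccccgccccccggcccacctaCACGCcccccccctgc
Ldha, chr1:106507842-106508091, plus strand: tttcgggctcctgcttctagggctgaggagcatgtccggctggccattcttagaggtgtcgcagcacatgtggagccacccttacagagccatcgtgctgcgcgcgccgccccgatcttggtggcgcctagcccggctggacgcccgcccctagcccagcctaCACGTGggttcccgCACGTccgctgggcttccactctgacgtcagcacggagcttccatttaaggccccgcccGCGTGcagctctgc

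Neither the Vegfa window nor the Hk2 window holds ACGTG or GCGTG, and the other Vegfa window holds neither too. The Slc2a1 window holds 4 matches, of which the ACGTG lies 51 to 47 bases before the start. The Ldha window also holds 4 matches, and its palindromic CACGTG, 87 to 82 bases before the start, accounts for an overlapping pair. Among the other members, the Hif1a window has 3 matches and the Gapdh window 3, and each of the Eno1 windows has 1. Among all 33469 RefSeq windows of that length, 16.6% hold ACGTG and 36.7% hold ACGTG or GCGTG on either strand. Slc2a1 and Ldha thus hold the most matches of the 7 members, so the 4 windows shown are not typical of called and uncalled members. Sequence farther from the start was not searched. A match is only a match of letters, and its absence says only that the letters are not in these windows.

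Per unit of length the members span a wide range of levels. In the authors' FPKM (fragments scaled to gene length and library depth), Ldha averaged 737.3 over the 9 libraries and ranged from 648.8 to 817.5, and Eno1 averaged 736.6 with a range of 660.7 to 804.8. These 2 overlapped and ranked 61st and 62nd of 12943 genes. Gapdh followed at 443.6 FPKM (353.5 to 542.5) and ranked 138th. Slc2a1 averaged 88.2 FPKM (80.2 to 95.3). Hk2 at 42.4 (35.7 to 52.3) and Hif1a at 39.5 FPKM (32.0 to 48.1) overlapped in their ranges. Vegfa was the lowest member at 15.8 FPKM (12.9 to 20.4), still above 57.8% of tested genes. The enzymes of late glycolysis were thus among the most abundant messages of these cells, and the signal and transport genes lay well below them. Reads of Gapdh, Eno1 and Ldha may be shared with the processed pseudogenes these genes are known to have, and how the authors counted such reads is not given in the sources used here.

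**Figure D1:**
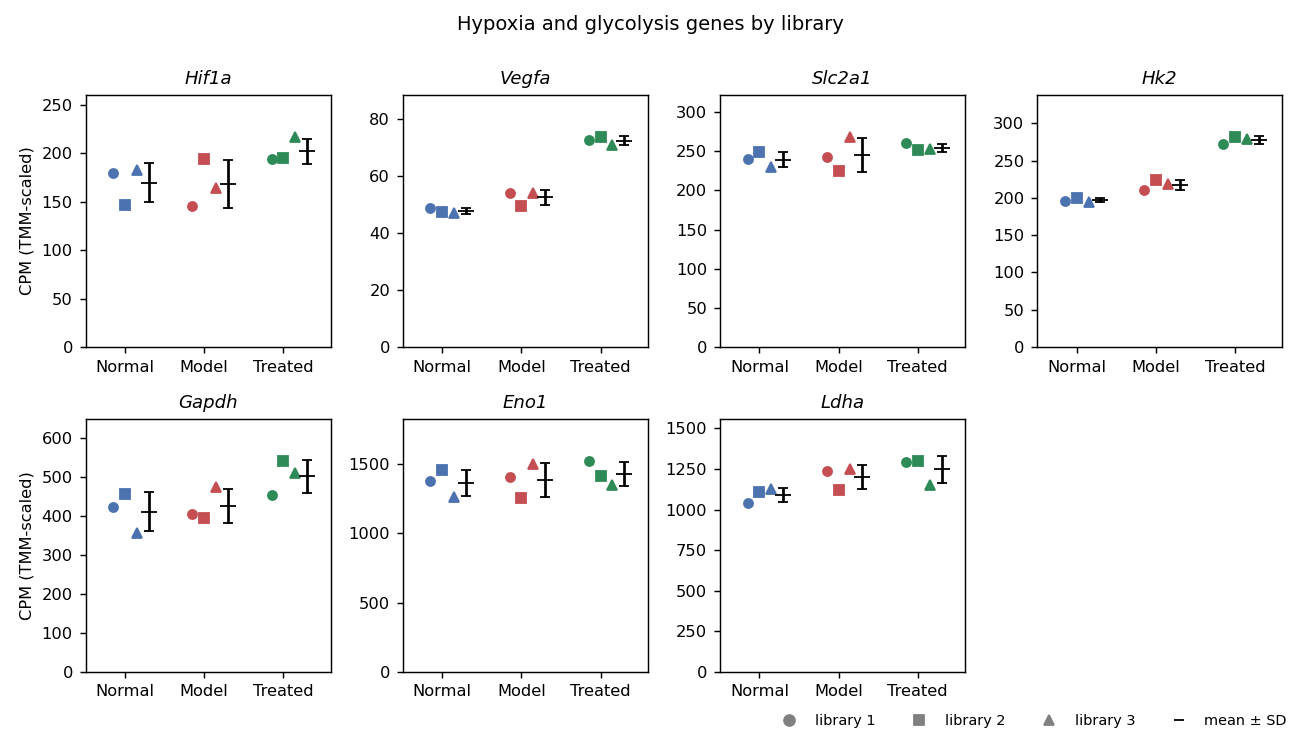
Normalised counts of the 7 genes in each of the 9 libraries. The vertical axes give CPM (counts per 1e6 counts of the library) with TMM scaling and start at 0, symbols mark libraries 1, 2 and 3 of a group, and black marks give the mean ± SD of 3 libraries. Every treated library lies above every Model and Normal library for Vegfa and for Hk2, while the groups of the other 5 genes overlap in at least 1 comparison.

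In units of 1e6 counts, libraries of the gene table totalled 7.98 to 18.3, lowest in treated libraries 2 and 3 (7.98 and 8.15) and highest in treated library 1. The members were counted well: Vegfa had the fewest reads, 576 to 1328 per library, and Ldha and Eno1 had 9448 to 27786. Whether a group's 3 libraries came from different cultures is not in the labels, so the p-values reflect library-to-library spread that could be technical only. The 7 genes together took 0.339% to 0.409% of a library's counts. Levels below are CPM on TMM-scaled library sizes, and calls were made at p below 0.05 after Benjamini-Hochberg adjustment over all 12943 tested genes.

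Vegfa (ENSRNOG00000019598) encodes the secreted growth factor of the set and showed the largest change. Its level was 48.9, 47.3 and 47.1 CPM in Normal libraries 1, 2 and 3, and 54.0, 49.7 and 54.2 CPM in the Model libraries. In the treated libraries it was 72.7, 73.9 and 71.0 CPM. All 3 treated libraries were above all others, and the lowest of them was 1.31 times the highest Model library. Vegfa rose 1.38-fold from Model to the treated group, from 52.6 ± 2.55 to 72.6 ± 1.47 CPM (SD, n = 3), and its log2 fold change was 0.46 with a standard error of 0.07 (edgeR's quasi-likelihood test, adjusted p = 0.00709). Against Normal, at 47.8 ± 1.01 CPM, the rise was 1.52-fold, with a log2 fold change of 0.60 ± 0.07 (SE; edgeR adjusted p = 0.000356). In bulk RNA, more cells that express a gene and more of its RNA per cell cannot be told apart.

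Hk2 (ENSRNOG00000006116) encodes hexokinase 2, which traps glucose in the cell as glucose 6-phosphate, the first step of glycolysis. It stood at 195.1, 199.8 and 194.9 CPM in the Normal libraries, at 210.5, 223.9 and 218.1 CPM in Model and at 271.8, 282.0 and 279.4 CPM in the treated group. As with Vegfa, no treated library overlapped the rest, and the lowest treated library was 1.21 times the highest Model library. Hk2 rose 1.28-fold from Model to the treated group, from 217.5 ± 6.72 to 277.7 ± 5.27 CPM (SD, n = 3; log2 fold change 0.35 ± 0.05, edgeR adjusted p = 0.00829). Against Normal, at 196.6 ± 2.78 CPM, it rose 1.41-fold (log2 fold change 0.50 ± 0.05, edgeR adjusted p = 0.000286). Both rises rest on 1 set of treated libraries, so the 2 comparisons are not independent.

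These changes are modest in fold but larger than the spread within groups of 3 libraries. The within-group coefficient of variation was 2.25% for Hk2 and 3.11% for Vegfa, against a median of 9.03% over all tested genes, and 0.742% and 3.21% of genes had a lower one. For Vegfa this is no wider than counting error alone, which is 2.74% to 4.17% at its read numbers. The tested genes include ones with far fewer reads, where counting error is larger, and the comparison with their median was not matched for depth. By p-value, Vegfa ranked 10th and Hk2 16th of 12943 genes between the treated group and Model, and 11th and 8th against Normal.

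In the treated group against Model, 2 of the 7 members were called, both higher, where 0.919% of all tested genes were called and 0.572% were called higher. Against Normal 2 of 7 were called, again both higher, where 2.67% of all genes were called and 1.39% were called higher. The same 2 genes, Vegfa and Hk2, were called in both comparisons. Shares over all tested genes, here and below, include genes with far fewer reads than the members and were not matched for depth. All 7 members had a positive log2 fold change in each of these comparisons, but 5 of them did not pass the test in either, and scaling to Gapdh turned Slc2a1, Eno1 and Ldha negative in both and Hif1a negative against Normal. The median log2 fold change of the 7 was 0.24 against Model and 0.25 against Normal, beside -0.00096 and 0.00070 over all tested genes, where 49.8% and 50.1% of genes were higher. The 119 genes called against Model were 74 higher and 45 lower, and the 346 called against Normal were 180 higher and 166 lower. With libraries scaled to Gapdh instead, those splits became 9 higher and 73 lower, and 22 higher and 1617 lower.

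**Figure D2:**
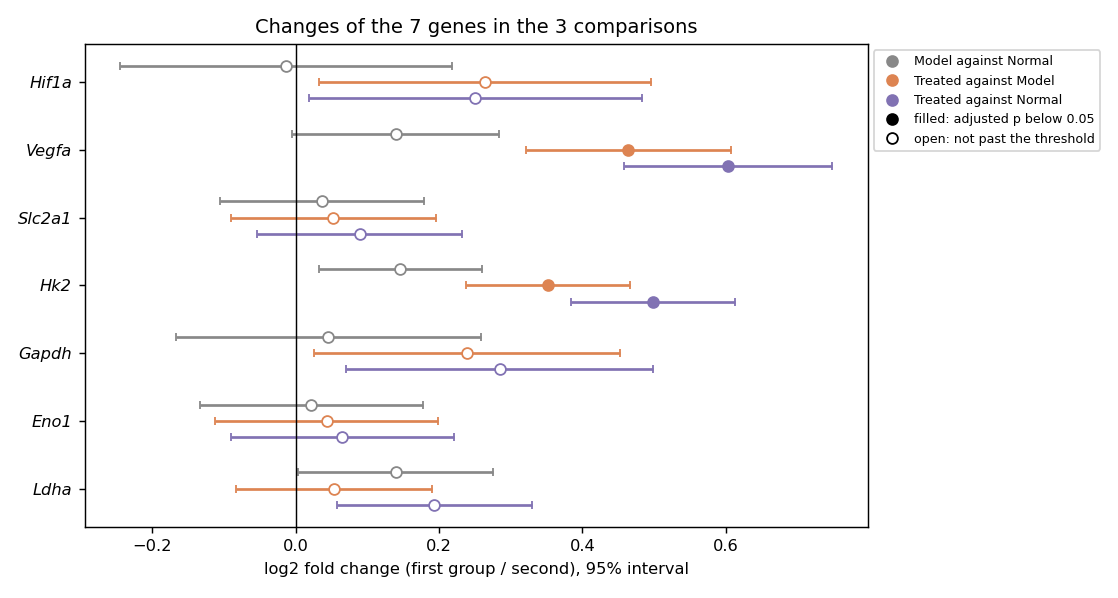
Log2 fold changes of the 7 genes in the 3 comparisons, with 95% intervals from the edgeR fit; positive values are higher in the group named first, and filled points passed the adjusted threshold. Only Vegfa and Hk2 have filled points, in the 2 comparisons of the treated group, and their treated against Normal intervals run from 0.46 to 0.75 and from 0.38 to 0.61.

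Between the treated group and Model, the calls of Vegfa and Hk2 depended on single libraries. Without treated library 2 both missed the threshold, with edgeR adjusted p = 0.0652 for Vegfa and 0.0683 for Hk2. Hk2 also missed it without Model library 1 (edgeR adjusted p = 0.0555) and without Model library 3 (0.0576). The fold changes hardly moved. Over the 9 fits that each left out 1 library, the log2 fold change was 0.42 to 0.49 for Vegfa and 0.33 to 0.37 for Hk2, with adjusted p of 0.00422 to 0.0652 and 0.00609 to 0.0683. Without treated library 2 the number of called genes in the whole table also fell, from 119 to 8. Against Normal both genes were called in all 9 such fits, with adjusted p of at most 0.00529 for Vegfa and 0.00596 for Hk2.

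**Figure D3:**
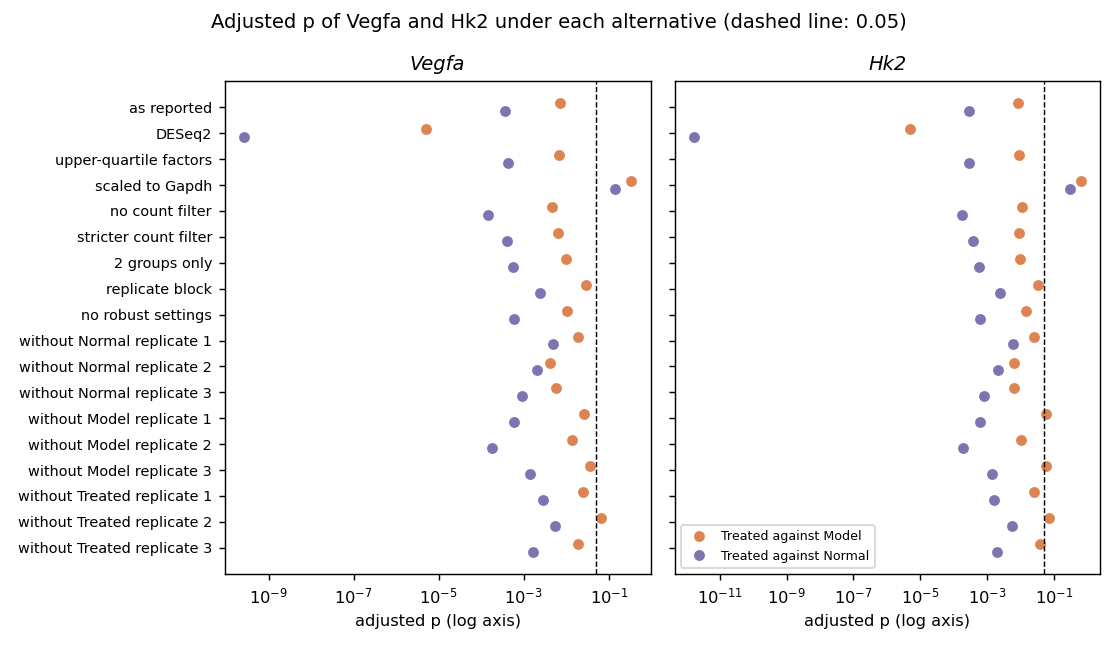
Adjusted p of Vegfa and Hk2 in the reported fit and under each alternative, on a log axis with a dashed line at 0.05. Points of the treated against Normal comparison lie left of the line in every fit but the one scaled to Gapdh, and those of treated against Model cross it there and without treated library 2, with Hk2 also crossing without Model library 1 or 3.

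Hif1a (ENSRNOG00000008292), which encodes the oxygen-regulated subunit of HIF-1, had the widest within-group spread of the 7 when pooled over the 3 groups, a coefficient of variation of 11.0% beside 10.3% for Gapdh, although Gapdh varied more within Normal and within the treated group. It was at 179.9, 146.7 and 182.8 CPM in the Normal libraries, at 145.6, 194.2 and 164.6 CPM in Model and at 193.7, 195.4 and 217.3 CPM in the treated group. The treated libraries lay above all Normal libraries, but Model library 2 lay between treated libraries 1 and 2. The log2 fold change was 0.26 (95% interval 0.03 to 0.50) against Model, with an edgeR adjusted p of 0.328, and 0.25 (0.02 to 0.48) against Normal, with an edgeR adjusted p of 0.238. Neither passed the threshold.

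Slc2a1 (ENSRNOG00000007284), the glucose transporter, was nearly level. Normal libraries were at 239.6, 249.1 and 229.3 CPM, Model libraries at 242.9, 225.0 and 268.7 CPM and treated libraries at 260.2, 251.1 and 252.4 CPM. Treated libraries were all above Normal, by a margin of only 1.01 times between the nearest libraries, and they lay inside the Model range. The 95% interval of the fold change was 0.963 to 1.17 against Normal and 0.939 to 1.14 against Model (edgeR adjusted p = 0.501 and 0.777).

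Gapdh (ENSRNOG00000018630), the enzyme of the middle of glycolysis and a common reference gene in qPCR, was at 421.0, 455.0 and 355.3 CPM in Normal, at 405.1, 392.8 and 473.1 CPM in Model and at 453.5, 539.2 and 508.0 CPM in the treated group. Treated libraries 2 and 3 were the highest of all 9, while treated library 1 lay inside the range of the other groups. The log2 fold change was 0.24 (95% interval 0.03 to 0.45) against Model and 0.28 (0.07 to 0.50) against Normal, and neither passed the threshold (edgeR adjusted p = 0.341 and 0.149). Treated libraries 2 and 3 were also the shallowest, and the part of depth in this pattern was not tested.

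Eno1 (ENSRNOG00000017895), the enolase of late glycolysis, was at 1377, 1457 and 1266 CPM in Normal, at 1408, 1255 and 1499 CPM in Model and at 1522, 1416 and 1350 CPM in the treated group. The 3 groups overlapped throughout. Its fold change between the treated group and Normal had a 95% interval of 0.939 to 1.17 (edgeR adjusted p = 0.672), and against Model of 0.925 to 1.15 (edgeR adjusted p = 0.839).

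Ldha (ENSRNOG00000013009) encodes the lactate dehydrogenase subunit that favours making lactate from pyruvate. It was at 1043, 1108 and 1124 CPM in Normal, at 1237, 1118 and 1253 CPM in Model and at 1295, 1297 and 1153 CPM in the treated group. All treated libraries exceeded all Normal libraries, and 2 of 3 Model libraries did so too. The log2 fold change was 0.19 (95% interval 0.06 to 0.33) between the treated group and Normal and 0.05 (-0.08 to 0.19) between the treated group and Model, and neither passed the threshold (edgeR adjusted p = 0.123 and 0.758).

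In the treated group against Normal, 5 of the 7 members (Hif1a, Vegfa, Slc2a1, Hk2 and Ldha) had treated libraries entirely above the Normal libraries, where 11.9% of all tested genes did. Against Model the number was 2 of 7, Vegfa and Hk2, where 7.9% did. No member had treated libraries entirely below those of Normal or Model, where 12.5% and 10.8% of genes did. Before adjustment, an edgeR p below 0.05 was found against Normal for 5 members (all but Slc2a1 and Eno1), where 18.5% of all genes had one, and against Model for 4 (Hif1a, Vegfa, Hk2 and Gapdh), where 12.6% did.

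**Figure D4:**
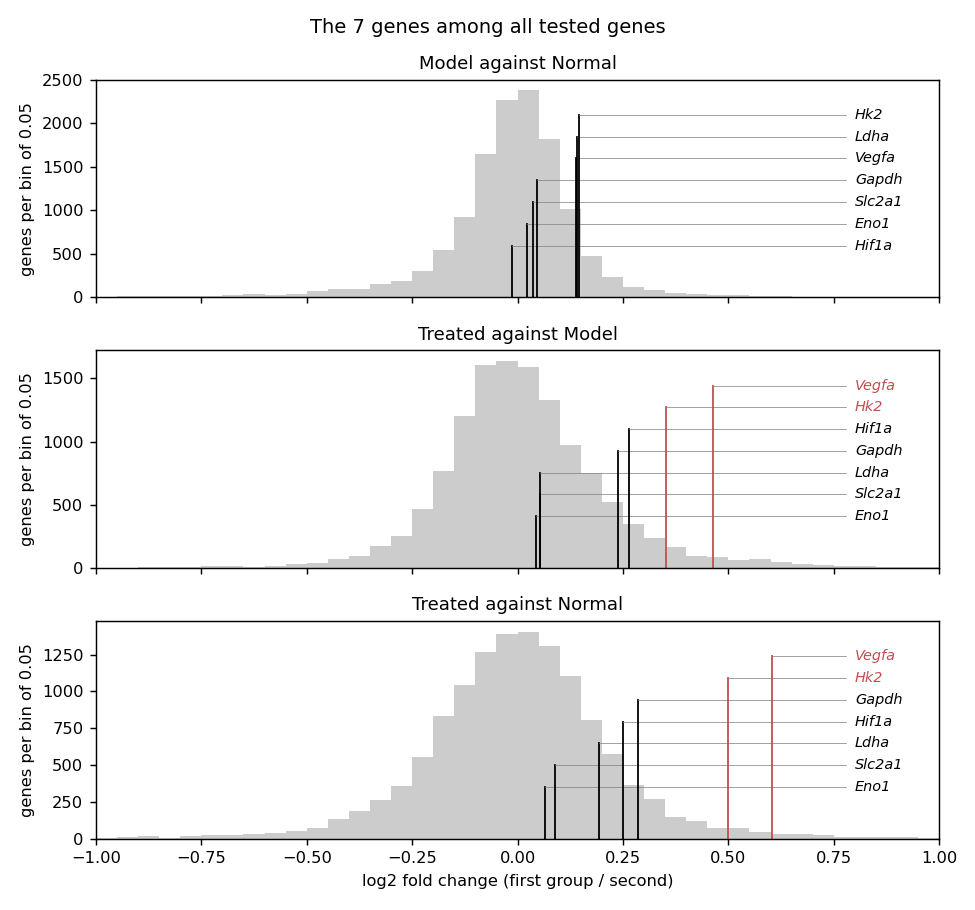
The 7 genes among all 12943 tested genes. Grey bars count genes per 0.05 of log2 fold change, with the axis limited to -1 to 1, and lines mark the members, in red where called. In the treated group against Normal, Vegfa lies above 98.5% and Hk2 above 97.6% of genes. In the treated group against Model, they lie above 96.8% and 94.6%. In Model against Normal all members lie within the bulk.

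What the Model condition did to these genes was asked against Normal. None of the 7 members passed the test there: 0 of 7 were called by edgeR and 0 of 7 by DESeq2, and 0% of all genes were called by either. Before adjustment, 2 members (Hk2 and Ldha) had an edgeR p below 0.05, where 4.25% of all genes had such a p. Hk2 was 1.11 times as high in Model as in Normal (95% interval 1.02 to 1.20; edgeR adjusted p = 0.999) and Vegfa 1.10 times (0.997 to 1.22; edgeR adjusted p = 0.999). For both genes every Model library lay above every Normal library, by a factor of at least 1.05 for Hk2 and 1.02 for Vegfa between the nearest libraries. Libraries entirely higher in Model were found for 5.49% of all tested genes, and entirely lower for 3.63%, among them no member. Ldha was 1.10 times as high (1.00 to 1.21), with Model library 2 inside the Normal range. The log2 fold changes of Hif1a, Slc2a1, Gapdh and Eno1 lay between -0.01 and 0.05, and for Hif1a, whose replicates spread widely, the interval of -0.24 to 0.22 leaves room for changes in either direction. The median over the 7 was 0.05, beside -0.0024 over all genes.

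Because Gapdh is often used to scale other genes, the members were also set against it within each library. Vegfa counts were 11.6%, 10.4% and 13.2% of Gapdh counts in the Normal libraries, 13.3%, 12.6% and 11.5% in Model and 16.0%, 13.7% and 14.0% in the treated group. The treated libraries were still the 3 highest, but the gap to the nearest Model library narrowed. Hk2 counts were 46.3%, 43.9% and 54.8% of Gapdh in Normal, 52.0%, 57.0% and 46.1% in Model and 59.9%, 52.3% and 55.0% in the treated group, so that on this scale the groups overlapped. In an edgeR fit with every library scaled to its Gapdh count, neither passed the threshold. For Vegfa the log2 fold change was 0.23 ± 0.16 against Model (edgeR adjusted p = 0.335) and 0.31 ± 0.16 against Normal (edgeR adjusted p = 0.140). For Hk2 it was 0.11 ± 0.15 (edgeR adjusted p = 0.628) and 0.21 ± 0.15 (edgeR adjusted p = 0.301). That scaling moved the median log2 fold change of all genes to -0.24 against Model and -0.28 against Normal. Relative to those medians Vegfa was higher by 0.46 and 0.60, and Hk2 by 0.35 and 0.49. Taking off the median largely undoes the Gapdh scaling, so these values repeat the TMM result by construction and are no separate check. On the Gapdh scale Slc2a1, Eno1 and Ldha turned to negative log2 fold changes in both treated comparisons, from -0.22 to -0.10, and Hif1a to -0.05 against Normal, with none past the threshold.

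**Figure D5:**
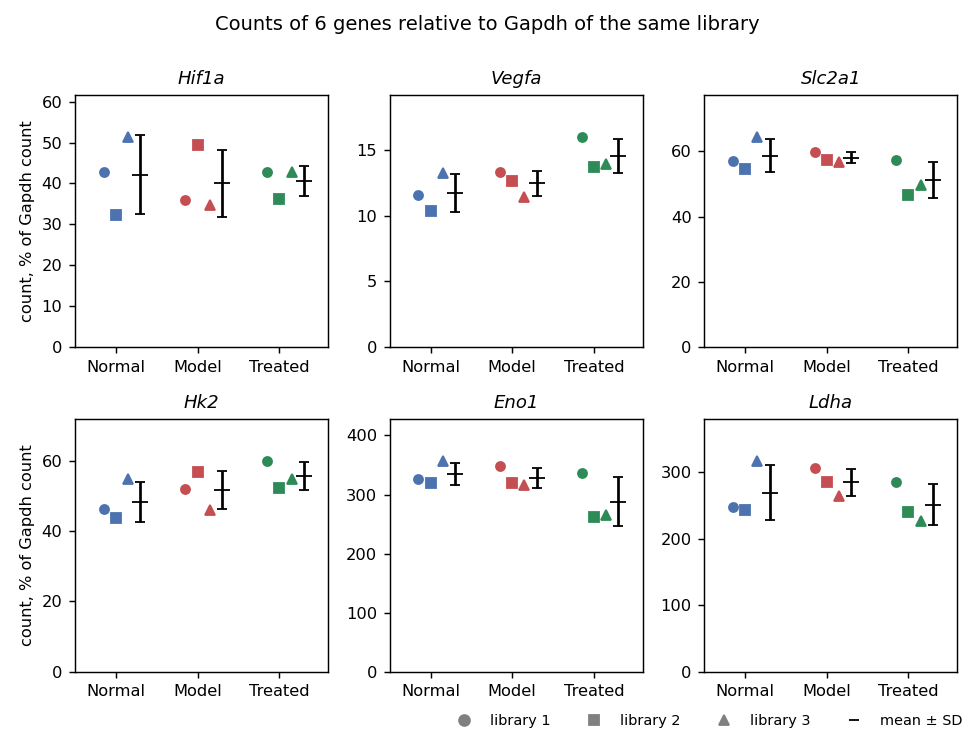
Counts of 6 genes as a percent of the Gapdh count of the same library, with the mean ± SD of 3 libraries in black and axes that start at 0. Vegfa stays highest in the 3 treated libraries, from 13.7% to 16.0%, while the groups of the other 5 genes overlap.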

How the data were processed

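The authors deposited whole-number read counts per gene and FPKM values for 9 libraries, per the file headers. The labels' protocols name strand-specific total RNA libraries, and the submitters' processing notes name CASAVA 1.8 and the build mRatBN7.2. How reads were aligned and counted, on which strand and with which annotation, is not given in the sources used here, and reads from genes that overlap a member cannot be told apart. The tests used the deposited counts, and the deposited FPKM only served to compare levels between genes. Over 8768 genes with at least 100 counts in every library, count divided by FPKM and by the library's total count deviated by at most 0.00054%, so each has a single length. The lncRNA table was not used here.

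All 9 libraries entered 1 fit of the whole table with edgeR 4.0.16 under R 4.3.3, with group as the single term, TMM scaling, filterByExpr at its minimum count of 10, and robust glmQLFit with glmQLFTest. After filtering 12943 genes remained, with at least 99.8% of each library's counts. P-values were adjusted by Benjamini-Hochberg over all of them, with a threshold of 0.05. The standard error is the log2 fold change divided by the square root of F, and 95% intervals use the t quantile of the fit's total degrees of freedom. Before use, the script was tested on simulated data. The changes planted there were all larger than those of Vegfa and Hk2 against Model and that of Hk2 against Normal. Recovery of changes of that size was therefore not tested. No replicate pair agreed within sampling noise (chi-square per degree of freedom 4.27 to 15.3), and each library entered the fit once. Such spread cannot tell separate cultures from separate preparations of the same culture. Alternatives were DESeq2 1.42.0, upper-quartile factors, scaling to Gapdh, no count filter, a minimum count of 50, fits of 2 groups, a replicate block, no robust settings and leaving out each library. The members and lists were chosen with earlier results of these data known. All 7 members are named, and further genes of the pathway were not analysed here, for want of symbols. Promoter windows were matched by symbol to RefSeq (GRCr8).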

Additional observations from a re-analysis of the deposited data

How the results depend on the processing

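The number of members called stayed at 0 between Model and Normal under every alternative run. In both treated comparisons it stayed at 2 in DESeq2, with upper-quartile factors, without or with a stricter count filter, in fits of 2 groups, without robust settings and with the replicate block, and it was 0 and 0 when libraries were scaled to Gapdh, which brings the spread of Gapdh into every gene. Leaving out single libraries gave 0 to 2 members against Model. Over all genes, leaving out single libraries gave 0 to 16 calls for Model against Normal, 8 to 215 for treated against Model and 94 to 671 for treated against Normal. Scaling to Gapdh gave 12 calls for Model against Normal and 1639 for treated against Normal, and DESeq2 gave 203 for treated against Model. The replicate block gave 1 call for Model against Normal and 47 for treated against Model. Libraries of the same number share only that number: their deviations correlated with r of -0.01 to 0.29 over 9 pairs, 2 of them above 0.1, and a library matched its own number best in 8 of 18 checks, so the pairing is not established. The block changed no call of a member.

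Sign changes were seen only in changes that had not passed the test. Scaling to Gapdh gave log2 fold changes of -0.018 for Slc2a1 and -0.028 for Eno1 in Model against Normal, -0.18 for Slc2a1, -0.19 for Eno1 and -0.18 for Ldha in treated against Model, and -0.053 for Hif1a, -0.20 for Slc2a1, -0.22 for Eno1 and -0.10 for Ldha in treated against Normal. Without a count filter Hif1a was at 0.00089 in Model against Normal. Leaving out single libraries gave ranges of -0.13 to 0.080 for Hif1a, -0.032 to 0.097 for Slc2a1, -0.047 to 0.12 for Gapdh and -0.037 to 0.090 for Eno1 in Model against Normal, and -0.0078 to 0.12 for Slc2a1 and -0.025 to 0.10 for Eno1 in treated against Model. Beyond the construction of the alternatives, the cause was not tested. At 576 reads or more per library, counting error for Vegfa is at most 4.17%, and for Hk2 it is 1.42% to 2.10% beside a within-group coefficient of variation of 2.25%. For the other 5 genes the within-group spread, pooled over the groups, exceeded counting error.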

Other observations

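Vegfa and Hk2 shared an order of groups that the tests above do not address, chosen after their values were seen. For each of them every Model library lay above every Normal library and every treated library above every Model library. This order was found for 89 of 12943 tested genes, which is 0.688%, and for 2 of the 7 members. The step from Normal to Model did not pass the test for either gene, and the steps share the Model libraries.

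Over the 9 libraries, Hk2 was the 13th closest of all tested genes to Vegfa by the Pearson correlation of log2 CPM. That rank is taken over all 9 libraries, between whose groups both genes differed, and likeness within groups was not tested. The gene closest to Vegfa outside the 7 was ENSRNOG00000004359, and the gene closest to Hk2 was ENSRNOG00000028330, which the file pairs with no symbols. No member came nearer to Hif1a than rank 2034.

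Slc2a1, Gapdh and Eno1 had the same order of libraries in the untreated groups. In Normal each was highest in library 2 and lowest in library 3, and in Model each was highest in library 3 and lowest in library 2. Hif1a ran the other way in Normal, with library 3 highest and library 2 lowest, and was highest in Model library 2. These orders were seen after the fact, and how many of all tested genes share them was not counted. Over the whole table, Normal libraries 2 and 3 were also the least alike of their group (chi-square per degree of freedom 10.6). Model libraries 2 and 3 were at 11.7, and Model libraries 1 and 2 at 15.3. The cause of these shifts within groups was not tested.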
